A study of Zea mays with 24 samples.

Results

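The difference between blade and sheath was compared between the epidermis and the full thickness of maize leaf primordia (Zea mays, inbred line B73, wild type) at leaf stage P7. The labels chose the members, which are 12 of the 24 libraries of the series: blade and sheath from the adaxial L1, and blade and sheath from all cell layers, with 3 libraries in each of the 4 groups. The adaxial L1 is the outermost cell layer on the upper side of the leaf, and a piece through all layers holds the epidermis of both sides together with the inner tissue. Tissue was cut by laser microdissection 50 µm to either side of a ligule piece that was 100 µm high, and each library pooled 5 to 6 plants grown at 25 °C during 15 h light periods and at 20 °C during the 9 h nights. The quantity studied is the interaction, the log2 ratio of blade over sheath in the adaxial L1 minus the same ratio in all layers. It is positive where blade exceeds sheath more in the L1. It asks which differences along the leaf are stronger or weaker in the adaxial epidermis than in the full thickness. Since the full thickness includes that epidermis, it cannot assign a difference to the inner tissue or to the epidermis of the lower side. The other 12 libraries (P7 ligule from both kinds of tissue, and P6 primordia of wild-type and lg1-R plants) are used only to give further levels.

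The maize leaf has a distal blade, which spreads for photosynthesis, and a proximal sheath, which wraps the stem. Between them the ligule grows from the preligule band, and its outgrowth starts in the adaxial epidermis. Epidermal identity is tied to the HD-ZIP IV transcription factors, such as the OCL proteins of maize, while auxin and cytokinin signalling, YABBY, LOB domain and SBP-box factors pattern the leaf along its axes.

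All 7 HD-ZIP IV genes, the markers of epidermis, were higher in the L1 than in all layers at an adjusted p below 0.05 (median log2 difference 1.83 over the mean of blade and sheath; over all genes tested 2175 were higher, 10.2%). The marker ocl1 (GRMZM2G026643) lay between 414 and 552 CPM (counts scaled to a common library total) in the 6 L1 libraries and between 156 and 217 CPM in the 6 libraries of all layers. In both kinds of tissue the summed HD-ZIP IV level overlapped between blade and sheath. Of 14 vascular genes, 11 had no count in the blade L1 and 12 none in the sheath L1. In each group of all layers 5 of the 14 had none. Several of those seen only in all layers were very low there, such as sut1 with group means of 0.0881 and 0.195 CPM. For such genes a lack of counts in the L1 does not show absence. ATPP2-B1 (5.30 and 4.29 CPM) and Laccase-17 (GRMZM2G072808, 6.71 and 36.7 CPM, 0 in some libraries) stood higher. The summed level of the 14 genes was 195 to 345 CPM in the blade L1 and 289 to 362 CPM in the sheath L1. In all layers it was 231 to 257 CPM in the blade and 260 to 432 CPM in the sheath. Most of it came from SCR, with group means of 201 to 311 CPM, a gene that the stomatal list holds too. The sums of all layers did not overlap between blade and sheath, and their part in the differences was not tested. The summed level of 13 cuticle genes was 10410 to 20939 CPM in the blade L1 and 8287 to 11299 CPM in the sheath L1. In all layers it was 3421 to 3708 CPM in the blade and 2682 to 3459 CPM in the sheath. The other lists of inner tissue did not have clearly higher sums in all layers. The HD-ZIP III gene rld2 was higher in the L1 (log2 difference 1.27) and rld1 was not called (0.25). The sum of 26 carbon fixation and C4 genes was 1794 to 2066 CPM in the blade L1 and 1669 to 2117 CPM in the sheath L1. In all layers that sum was 1631 to 1870 CPM in the blade and 1657 to 2158 CPM in the sheath. The total count per library was 9237418 to 32553958 in the blade L1, 6240127 to 18104508 in the sheath L1, 21722027 to 52731782 in the blade of all layers and 9970945 to 17266495 in the sheath of all layers. Blade L1 replicate 2 and sheath all-layers replicate 4 stood apart from their groups. In bulk tissue, fewer cells of a type and less RNA per cell cannot be told apart. The labels do not say that replicates are separate biological samples beyond their pools of plants, so p-values measure the spread between these libraries.

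A few genes had a blade-sheath difference that depended on the tissue. Blade exceeded sheath more in the L1 for the auxin response factor gene ARF4, the inositol phosphate synthase genes mips2 and INO1, and the photosystem I gene psah1. The phosphoethanolamine methyltransferase gene PEAMT1 went the other way. Of 21424 genes tested, 32 were called by the interaction at an adjusted p below 0.05 (0.149%; edgeR's quasi-likelihood test, p-values adjusted by Benjamini-Hochberg), 18 of them positive (0.084%) and 14 negative (0.0653%). Before adjustment 1490 genes had a p below 0.05 (6.95%), and the median interaction over all genes was 0.05. The number of calls ranged from 3 to 45 when each library was left out in turn. It was 3 to 13 without any 1 of the 6 libraries of all layers, 21 without blade L1 replicate 1, 19 without blade L1 replicate 3 and 29 to 45 without each of the other 4 L1 libraries. Leaving out both libraries that stood apart gave 20 calls, 12 of them among the 32. Without blade replicate 4 of all layers 3 calls were made, and these were ARF4, GRMZM2G173534 and GRMZM2G499390, which also kept their call in each of the other leave-one-out fits. The other called genes described below were chosen after their values were seen.

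**Figure D1:**
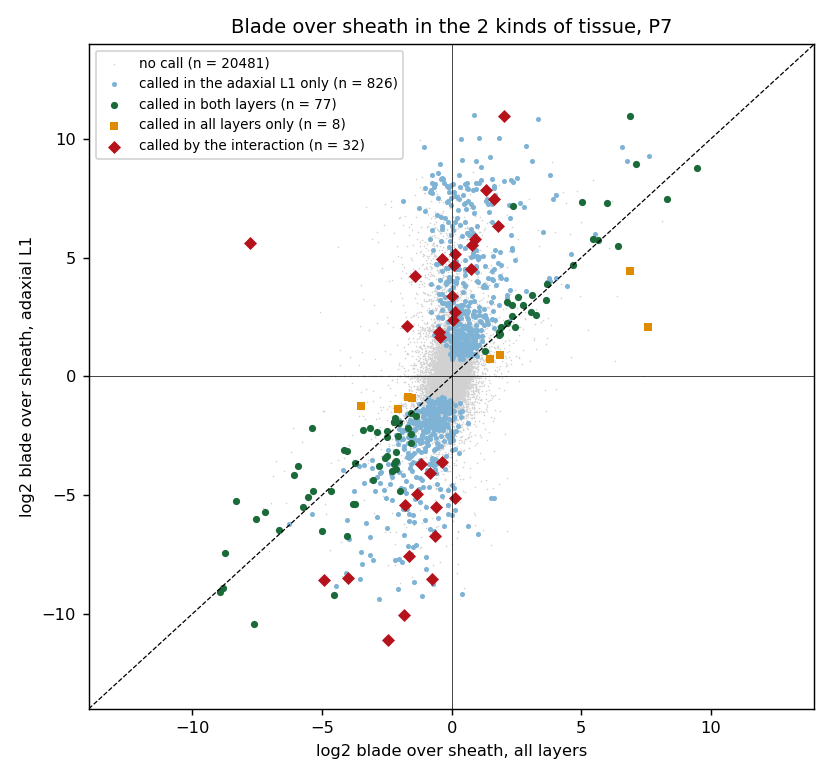
Log2 ratio of blade over sheath in all layers (x axis) and in the adaxial L1 (y axis) for the 21424 genes tested, with the dashed line marking equal ratios. Of the 32 genes called by the interaction (red diamonds), 29 were called in the L1 alone and 2 in both, and 1 (GRMZM2G146809, far to the left) in all layers alone.

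All 32 called genes had their lowest group mean in the L1, and it was the L1 of the region that the sign of the interaction makes low. All 18 positive genes were lowest in the sheath L1, and all 14 negative genes were lowest in the blade L1. The highest mean was less uniform. Of the positive genes 6 were highest in the blade L1, 6 in the blade of all layers and 6 in the sheath of all layers, while 10 of the 14 negative genes were highest in the sheath L1. Averaged over blade and sheath, 23 of the 32 were lower in the L1 than in all layers at an adjusted p below 0.05 and 0 were higher (over all genes tested 2827 were lower, 13.2%). In the L1 the blade and sheath libraries did not overlap for 17 of the 18 positive and 14 of the 14 negative genes, against 18.4% of all genes tested. In all layers they overlapped for 9 of the 32, while 14.6% of all genes tested did not overlap. The choice by the interaction fixes part of this pattern, so it is given as a description. In 9 of the 32 genes a group held 3 or fewer counts.

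The auxin response factor gene ARF4 (GRMZM2G034840), whose product is a transcription factor of the auxin pathway, stood at 13.5, 6.95 and 14.1 CPM in the blade L1 and at 0, 0.0568 and 0.0955 CPM in the sheath L1. In all layers it stood at 43.6, 42.7 and 53.6 CPM in the blade and at 13.1, 18.9 and 12.7 CPM in the sheath. Blade was above sheath without overlap in both kinds of tissue, and the sheath epidermis was the only one of the 4 groups near 0. The sheath L1 held 2 counts against 632 in the blade L1, a ratio of 216 (95% counting interval 59.7 to 1790, which covers counting error only). The interaction was 5.85 (SE 0.71, 95% interval 4.33 to 7.36, adjusted p = 0.00676), from 7.49 in the L1 (SE 0.58, adjusted p = 5.04e-06) and 1.64 in all layers (SE 0.34, adjusted p = 0.053, or 0.00958 with all layers fitted alone). With so few counts the fitted value depends on the prior count, and limma gave 0.50 on the log2(FPKM + 1) scale, which understates changes at low levels. Of 23 alternative settings of the processing 20 called ARF4 by the interaction. In the ligule L1 ARF4 had 1.21, 0 and 0 CPM, near the sheath L1, while the ligule of all layers had 16.5 to 32.9 CPM.

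GRMZM2G173534, which has no name in the reference used, was the positive gene with the clearest excess in the blade epidermis. It stood at 55.7, 111 and 69.6 CPM in the blade L1 and at 4.37, 3.35 and 2.77 CPM in the sheath L1, against 17.1, 22.3 and 12.1 CPM in the blade and 10.8, 9.36 and 10.3 CPM in the sheath of all layers. The groups did not overlap in either tissue, and the gap was far wider in the L1. The interaction was 3.74 (SE 0.48, adjusted p = 0.00676), with log2 ratios of 4.51 in the L1 (SE 0.37) and 0.76 in all layers (SE 0.32, adjusted p = 0.953). Its ligule levels were low in both tissues, 0.0493 to 5.77 CPM in the L1 and 1.97 to 3.36 CPM in all layers.

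GRMZM2G499390, also without a name, was the reverse case. It stood at 10.8, 5.51 and 8.75 CPM in the blade L1 and at 89.8, 167 and 174 CPM in the sheath L1, and at 33.6, 31.2 and 31.9 CPM in the blade and 55.6, 53.3 and 64.3 CPM in the sheath of all layers. Sheath was above blade in every library of both tissues. The interaction was -3.25 (SE 0.41, adjusted p = 0.00676), from -4.09 in the L1 (SE 0.32) and -0.84 in all layers (SE 0.28, adjusted p = 0.539). The ligule L1 lay between, at 19.3 to 26.9 CPM.

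**Figure D2:**
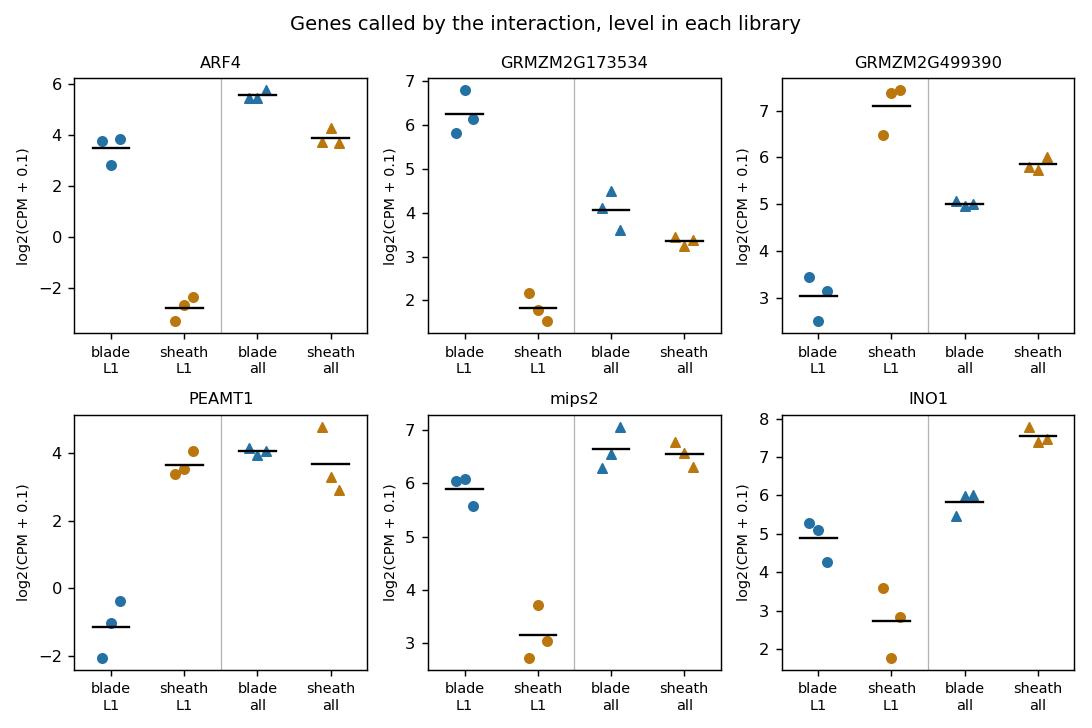
Level of 6 genes called by the interaction in each of the 12 libraries, as log2(CPM + 0.1), with circles for the adaxial L1, triangles for all layers and a bar for the mean of 3 libraries. In ARF4, mips2 and PEAMT1 only 1 of the 4 groups lies low, an epidermal one, and in INO1 the order of blade and sheath turns around between the tissues.

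Both called genes of inositol synthesis were low in the sheath epidermis. Inositol phosphate synthase makes the precursor of inositol, which enters phytic acid, membrane lipids and cell wall sugars. The gene mips2 (GRMZM2G004528) stood at 66.1, 67.9 and 47.4 CPM in the blade L1 and 6.47, 13.1 and 8.12 CPM in the sheath L1. In all layers it stood at 78.7, 94.3 and 134 CPM in the blade and 109, 95 and 78.8 CPM in the sheath. Only the L1 separated the regions, and in all layers the libraries of blade and sheath overlapped. Its interaction was 2.57 (SE 0.42, adjusted p = 0.0276), with 2.69 in the L1 (SE 0.31) and 0.12 in all layers (SE 0.29, adjusted p = 1). The call was lost in 6 of the 12 leave-one-out fits, those without blade replicate 3 or 4 or any sheath replicate of all layers, or without blade L1 replicate 1. In the ligule L1 mips2 fell to 0.0931, 0.269 and 0.148 CPM, below every sheath L1 library.

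For the paralog INO1 (GRMZM2G155242) the order of blade and sheath was opposite in the 2 tissues. It stood at 39.2, 34.5 and 19.3 CPM in the blade L1 and 12, 3.29 and 7.07 CPM in the sheath L1, blade above sheath in every library. In all layers it stood at 43.8, 62.8 and 65 CPM in the blade and 221, 169 and 178 CPM in the sheath, sheath above blade in every library. The interaction was 3.83 (SE 0.54, 95% interval 2.67 to 4.99, adjusted p = 0.011). The log2 ratio was 2.1 in the L1 (SE 0.39, adjusted p = 0.00644) and -1.73 in all layers (SE 0.37, adjusted p = 0.0702). Fitted alone on its 6 libraries, each tissue gave the other verdict, an adjusted p of 0.107 in the L1 and 0.00567 in all layers. The interaction call was lost without blade replicate 3 or 4 of all layers. P6 primordia held 210 to 312 CPM in wild type and 144 to 229 CPM in lg1-R, on the scale of the P7 sheath of all layers.

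Since mips2 and INO1 are paralogs, reads may be shared between them and their separate values are less certain. Their summed level was 105, 102 and 66.6 CPM in the blade L1 and 18.4, 16.4 and 15.2 CPM in the sheath L1. In all layers the sum was 122, 157 and 199 CPM in the blade and 330, 264 and 256 CPM in the sheath. The sum thus kept the direction of INO1 in each tissue, without overlap. Of the later genes of the phytic acid pathway, ipk1A and lpa3, both kinase genes, were not called by the interaction (-0.11, 95% interval -1.33 to 1.11, and -0.27, -2.60 to 2.06). The transporter gene MRP4 had no count in the L1 and gives no interaction, and lpa2 was too low to be tested.

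PEAMT1 (GRMZM2G122296) encodes the methyltransferase that feeds choline and phosphatidylcholine synthesis. It stood at 0.138, 0.394 and 0.667 CPM in the blade L1 and at 10.4, 11.5 and 16.6 CPM in the sheath L1. In all layers it stood at 17.7, 15.3 and 16.6 CPM in the blade and 27.5, 9.79 and 7.44 CPM in the sheath. The blade epidermis alone was low, and in all layers blade and sheath overlapped. The interaction was -5.26 (SE 0.81, adjusted p = 0.0233), from -5.11 in the L1 (SE 0.65) and 0.15 in all layers (SE 0.50, adjusted p = 1). The call was lost in 5 leave-one-out fits, without any of the 3 blade replicates or without sheath replicate 4 or 5 of all layers. P6 levels of PEAMT1 were 13.1, 14.2 and 24.7 CPM in wild type and 40.1, 54.4 and 40 CPM in lg1-R, a difference not tested here.

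The photosystem I subunit gene psah1 (GRMZM2G451224) was low in the adaxial L1 of both regions. It stood at 0.761, 0.525 and 0.593 CPM in the blade L1 and 0, 0.0568 and 0 CPM in the sheath L1, and at 3.19, 3.95 and 6.7 CPM in the blade and 10.9, 11.9 and 14.2 CPM in the sheath of all layers. Blade was above sheath in the L1 and below it in all layers, in every library. With 34 counts against 1, the L1 ratio was 23.3 (95% counting interval 3.91 to 946). The interaction of 5.65 (SE 1.01, adjusted p = 0.0432) was lost in 11 of the 12 leave-one-out fits.

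Among called genes without a name, GRMZM2G146809 had the largest interaction, 13.39 (SE 1.74, adjusted p = 0.00683), and it was the only called gene that differed in all layers and not in the L1. In all layers it stood at 165, 140 and 150 CPM in the sheath and at 1.19, 0.576 and 0.127 CPM in the blade, without overlap. In the L1 it stood at 4.25, 0.131 and 0 CPM in the blade and 0, 0 and 0.0955 CPM in the sheath, and its L1 level came almost wholly from blade L1 replicate 1. The log2 ratio was -7.78 in all layers (SE 1.02, adjusted p = 0.0016) and 5.61 in the L1 (SE 1.73, adjusted p = 0.0824). The interaction call was lost without that library and without blade replicate 4 of all layers. Its high level was thus found in sheath pieces through all layers and not in the adaxial L1 of the sheath.

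Another 2 called genes differed in the same direction in both tissues, more so in the L1. GRMZM2G146573 stood at 118, 160 and 146 CPM in the sheath L1 and 0.131 to 0.449 CPM in the blade L1, against 19.4, 41.5 and 30.5 CPM in the sheath and 0.509 to 1.28 CPM in the blade of all layers (interaction -3.67, SE 0.58, adjusted p = 0.0259). GRMZM2G488001 had an interaction of -4.49 with log2 ratios of -8.5 in the L1 and -4.0 in all layers. The calls of GRMZM2G146573 and GRMZM2G488001 were lost in 5 and 11 leave-one-out fits.

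Several called genes without a name were low in 1 of the 4 groups, an epidermal one, and well expressed in the other 3. GRMZM2G050412 stood at 73.1, 13.6 and 39.1 CPM in the blade L1 and at 429 to 1162 CPM in the libraries of the other 3 groups (interaction -3.23). GRMZM2G446897 stood at 14.7, 26.3 and 38.5 CPM in the sheath L1 and at 128 to 236 CPM in the other 3 groups (2.31). GRMZM2G115131 stood at 0.970, 0.511 and 1.62 CPM in the sheath L1 and at 9.05 to 62.3 CPM in the other 3 groups (4.74). Its call was lost in 1 leave-one-out fit. In each of the 3 genes the libraries of the low group lay below the others of the 12. The ligule L1, outside those 12, was low too for GRMZM2G050412 (2.95 to 39.5 CPM) and GRMZM2G446897 (15.6 to 37.3 CPM). The calls of GRMZM2G050412 and GRMZM2G446897 were lost in 9 and 11 leave-one-out fits.

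Next, each side of the interaction was read on its own. In the adaxial L1 934 genes were called between blade and sheath (4.36%), 492 higher in the blade (2.3%) and 442 higher in the sheath (2.06%). In all layers 88 genes were called (0.411%), 32 higher in the blade (0.149%) and 56 higher in the sheath (0.261%). Without both libraries that stood apart the numbers were 939 and 74. Leaving out blade L1 replicate 1 gave 620 L1 calls, and leaving out any 1 of the 6 libraries of all layers gave 37 to 58 calls in all layers. The gap between the tissues depended on the joint fit. With each tissue fitted alone on its 6 libraries, 268 of 18107 genes were called in the L1 (1.48%) and 259 of 21042 in all layers (1.23%). Of these, 110 were higher in the blade (0.607%) and 158 in the sheath (0.873%) in the L1, and 92 (0.437%) and 167 (0.794%) in all layers. At an unadjusted p below 0.05 the joint fit had 4041 genes in the L1 (18.9%) and 921 in all layers (4.3%). The median SD between replicates, over 11680 genes on the log2 CPM scale, was 0.365 in the blade L1 and 0.391 in the sheath L1, against 0.258 and 0.307 in all layers.

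Most genes called in all layers were called in the L1 too in the joint fit, but not with each tissue fitted alone. In the joint fit 79 genes were called in both tissues, which is 89.8% of the all-layers calls and 8.46% of the L1 calls, and 79 of the 79 had the same direction (28 higher in the blade, 51 in the sheath). In the separate fits 94 genes were called in both, 36.3% of the all-layers calls and 35.1% of the L1 calls, again with 0 in opposite directions. Of the 934 L1 calls 85.8% had the same sign in all layers, against 61.6% of all genes tested, but the ratio there was smaller. Their median log2 ratio was 2.80 in the L1 and 0.74 in all layers, in the direction of the L1. The 88 all-layers calls had a median of 3.12 in all layers and of 3.42 in the L1. A gene called in one tissue alone is not thereby shown to differ between tissues. Of the 855 genes called in the L1 alone, 29 were called by the interaction, and for 119 the 95% interval in all layers lay within -1 and 1. Of the 9 called in all layers alone, 1 was called by the interaction, and for 0 did the L1 interval lie within those bounds.

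Of the 79 genes called in both tissues 19 had a name, and 18 of these are described here, chosen after their values were seen. A wide gap in both tissues was that of GLN6 (GRMZM2G050514), a glutamine synthetase gene of nitrogen assimilation. It stood at 360, 471 and 427 CPM in the sheath L1 and 0.622, 1.31 and 0.593 CPM in the blade L1, and at 97.1, 107 and 104 CPM in the sheath and 0.263, 0.206 and 0.0849 CPM in the blade of all layers. The log2 ratio was -9.09 in the L1 (SE 0.37, adjusted p = 2.68e-09) and -8.95 in all layers (SE 0.38, adjusted p = 4.09e-09), and the interaction was -0.14 (95% interval -1.47 to 1.19). The silicon transporter gene Lsi6 (GRMZM2G081239) had a like pattern, with 100, 71.6 and 61.7 CPM in the sheath L1 and 0.131 to 0.692 CPM in the blade L1, and with 46.8, 20.4 and 31.3 CPM in the sheath and 0.0351 to 0.123 CPM in the blade of all layers. Its interaction was 1.33 (95% interval -0.27 to 2.92). Both genes were near 0 in every blade library of either tissue.

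The gene gl15 (GRMZM2G160730), an AP2-type factor of juvenile epidermis identity, was higher in the sheath, with log2 ratios of blade over sheath of -2.31 in the L1 and -2.48 in all layers (interaction 0.17, 95% interval -0.97 to 1.31). The LOB domain gene ial1 (GRMZM2G133806) was higher in the sheath, at 30.9, 67.6 and 45.2 CPM against 3.56, 13.4 and 13.6 CPM in the L1 and 6.44, 5.56 and 7.94 CPM against 0.403, 0.452 and 1.02 CPM in all layers. The genes bHLH24, bHLH145, bHLH165 and the TRAF-domain gene TRAF18 were higher in the sheath of both tissues. On the blade side, the auxin response factor gene ARF3 (GRMZM2G078274) stood at 1311, 954 and 1314 CPM in the blade L1 and 622, 493 and 568 CPM in the sheath L1, and at 1033, 1039 and 1261 CPM in the blade and 554, 411 and 413 CPM in the sheath of all layers. Its ratios of 1.09 and 1.27 gave an interaction of -0.18 (95% interval -0.79 to 0.42), and it is 1 of only 6 shared genes whose interval lay within -1 and 1.

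The response regulator gene abph1 (GRMZM2G035688), a cytokinin-induced gene that sets leaf arrangement in the shoot tip, was seen almost only in the blade. It had 9.47, 18.6 and 9.86 CPM in the blade L1 and no count in the sheath L1, and 4.37, 1.97 and 3.27 CPM in the blade of all layers with 1 count in the sheath. Against the floor of 3 counts over the group it was at least 125-fold higher in the blade L1, and in all layers the ratio was 171 (95% counting interval 30.5 to 6770). The actin depolymerising factor gene adf2 (GRMZM2G097122) was also confined mostly to the blade, with ratios of 468 (83.7 to 18500) in the L1 and 134 (45.7 to 651) in all layers. The gene ERD3, named for an early response to dehydration, was higher in the blade by 3.34 and 2.56.

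Of the remaining shared genes the allene oxide synthase gene aos1, of jasmonate synthesis, was higher in the sheath, with log2 ratios of -6.52 in the L1 and -5.0 in all layers. The pyruvate phosphate dikinase gene PPDK2 was higher there too (-2.54 and -2.5), as was the heat shock gene Hsp70 (-5.39 and -3.8). The cell cycle inhibitor gene SMR4, gl4a (named after a wax gene) and HIT2 were higher in the sheath too, with log2 ratios between -4.0 and -2.16. Only some of these calls hold in each leave-one-out fit in both tissues, namely those of GLN6, Lsi6, abph1, adf2, bHLH24, PPDK2 and Hsp70.

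**Figure D3:**
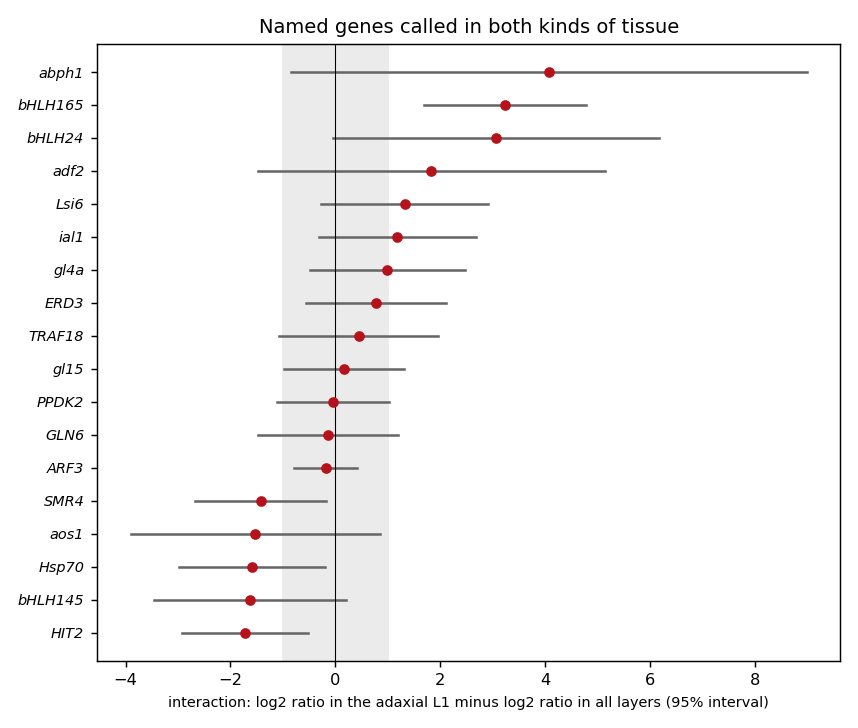
Interaction (points) and its 95% interval (lines) on the log2 scale for 18 named genes called in both kinds of tissue, with the band from -1 to 1 shaded. None was called by the interaction, and most intervals reach beyond the band, so equal ratios are not shown for most of these genes.

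Among the named shared genes with at least 10 counts in each group the largest interaction was that of bHLH165 (GRMZM2G145579). It stood at 29.3, 28.1 and 49.5 CPM in the sheath L1 and 5.88, 14.3 and 4.08 CPM in the blade L1, and at 5.33, 4.23 and 3.34 CPM in the sheath and 0.0877, 0.123 and 0.0849 CPM in the blade of all layers. Sheath exceeded blade without overlap in both, with log2 ratios of -2.16 in the L1 (SE 0.46, adjusted p = 0.0135) and -5.39 in all layers (SE 0.60, adjusted p = 0.000342). The interaction of 3.23 was not called (95% interval 1.69 to 4.77, adjusted p = 0.137), and it was -0.16 with limma on log2(FPKM + 1). Its L1 call was lost without blade L1 replicate 1 or sheath L1 replicate 3.

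The cell wall invertase gene incw1 (GRMZM2G139300), which splits sucrose outside the cell, was the only named gene called in all layers and not in the L1. It stood at 8.66, 8.35 and 10.9 CPM in the blade and 0.0585, 0 and 0.0835 CPM in the sheath of all layers, a ratio of 218 (95% counting interval 60.1 to 1800). In the L1 it stood at 31.1, 22.4 and 24.2 CPM in the blade and 0.97, 3.12 and 14.1 CPM in the sheath. The blade was above the sheath in every library of both tissues, and the sheath L1 libraries were spread widely. The L1 ratio was 2.08 (SE 0.66, adjusted p = 0.0897), and the interaction of -5.50 was not called (SE 1.23, adjusted p = 0.138) and was -0.52 with limma on log2(FPKM + 1).

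**Figure D4:**
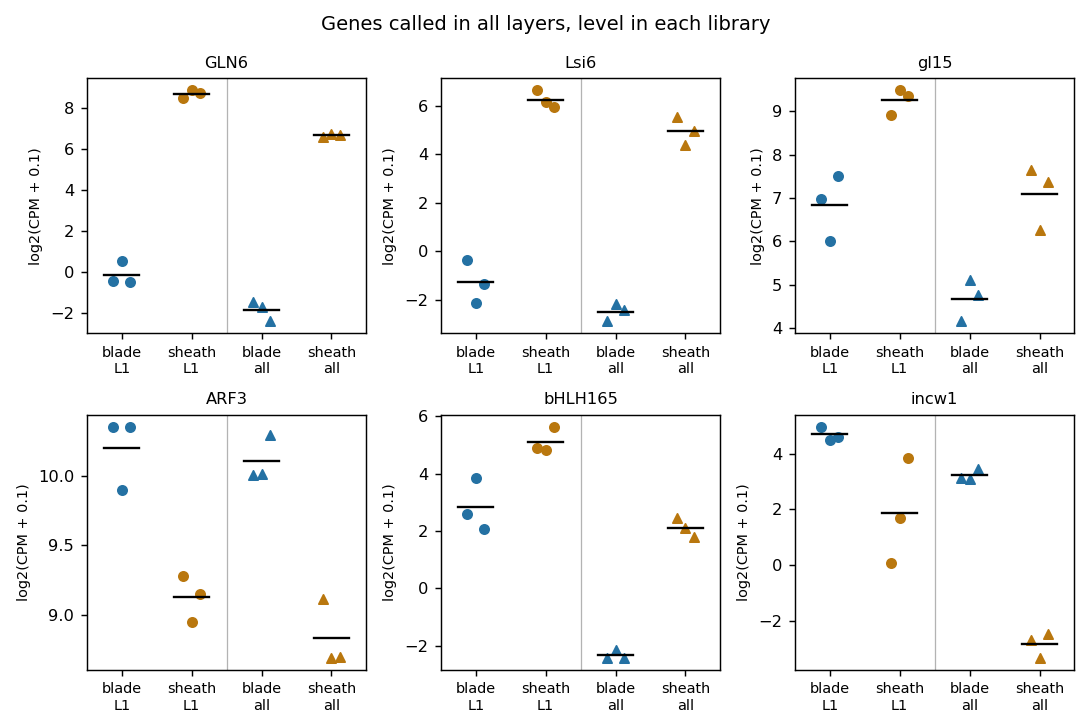
Level of 6 genes called in all layers in each of the 12 libraries, as log2(CPM + 0.1), with circles for the adaxial L1, triangles for all layers and a bar for the mean of 3 libraries. The direction from blade to sheath is the same in both tissues in each gene, and in bHLH165 and incw1 the step is larger in all layers on this scale, with neither called by the interaction.

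The 28 gene lists were read by counts and medians, beside the median interaction of 0.05 over all genes. Over all genes tested 2.3% were called higher in the blade L1 and 2.06% higher in the sheath L1. In all layers these shares were 0.149% and 0.261%, and the interaction called 0.149%. Each count below is to be read beside these shares. Of the 64 auxin genes 43 were tested, and 1 was called by the interaction (ARF4). In the L1 4 were higher in the blade and 3 in the sheath, and in all layers 1 was higher in the blade (ARF3). The flavin monooxygenase gene Yucca2 (GRMZM2G159393), of auxin synthesis, stood at 17.8, 3.69 and 10.6 CPM in the sheath L1 and 0.138, 0 and 0 CPM in the blade L1, and at 4.62, 1.32 and 2.34 CPM in the sheath and 0.614, 0.863 and 1.1 CPM in the blade of all layers. It was higher in the sheath L1, with a log2 ratio of -7.13 (SE 1.01, adjusted p = 0.000874) and not called in all layers (-1.69, SE 0.74, adjusted p = 1), with an interaction of -5.44 (adjusted p = 0.137). The repressor gene IAA12 (GRMZM2G128421) was nearly silent in the L1, with 2.87, 0 and 1.33 CPM in the blade and no count in the sheath, against 50.4 to 92.7 CPM in all layers. Its L1 call was lost without blade L1 replicate 1 or sheath L1 replicate 2.

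Of 34 cytokinin genes 24 were tested, with 0 called by the interaction, 2 higher in the blade L1 and 0 in the sheath L1 (median interaction 0.36). Besides abph1 this was the response regulator gene crr2 (GRMZM2G392101). It stood at 36.7, 48.9 and 22.7 CPM in the blade L1 and 6.63, 8.46 and 9.07 CPM in the sheath L1, while blade (29.1 to 42.1) and sheath (19.4 to 46.7) overlapped in all layers. The L1 ratio was 2.15 (SE 0.37, adjusted p = 0.00373), and the interaction was 1.94 (SE 0.51, adjusted p = 0.235).

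Of 24 tested growth regulation genes 3 were higher in the blade L1 and 0 in the sheath L1, where over all genes tested 2.3% and 2.06% were. The growth coactivator gene AN3 (GRMZM2G180246) stood at 459, 277 and 314 CPM in the blade L1 and 142, 80.7 and 114 CPM in the sheath L1 (1.64, SE 0.32, adjusted p = 0.00807), and blade and sheath overlapped in all layers. GRF3 was higher in the blade L1 with a log2 ratio of 1.0 (SE 0.20, adjusted p = 0.0103). Of 36 tested cell cycle genes 3 were higher in the blade L1, namely cki1 (2.71) and MCM6 and pcna1 of DNA replication (0.87 and 0.72), and 1 in the sheath L1 (SMR4, -3.60). The calls of MCM6 and pcna1 were each lost in 7 leave-one-out fits. The 11 histone genes had a median ratio of 0.88 in the L1 and 0.21 in all layers, with 1 called in the L1, his2a1, whose call was lost in 4 leave-one-out fits. In all layers 0 growth regulation and 0 histone genes were called, and 0 genes of the 3 lists were called by the interaction.

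Lists of leaf patterning gave few calls. Of 20 SBP-box genes 1 was higher in the blade L1 (sbp29, 2.02) and 2 in the sheath L1 (sbp20, -0.95, and ub3, -1.76), with 0 in all layers and 0 by the interaction. Of 10 YABBY and KANADI genes 1 was called, yabby15 (GRMZM2G529859), at 43.5, 48.1 and 36.3 CPM in the blade L1 and 452, 429 and 326 CPM in the sheath L1. In all layers yabby15 stood at 152, 279 and 270 CPM in the blade and 909, 324 and 679 CPM in the sheath. Sheath was above blade in every library of both tissues. The L1 ratio of yabby15 was -3.24 (SE 0.35, adjusted p = 8.78e-05), that of all layers -1.45 (SE 0.33, adjusted p = 0.0871), and the interaction -1.79 (SE 0.46, adjusted p = 0.216). The polarity gene pan1 (GRMZM5G836190), a receptor-like protein gene for the divisions beside stomatal guard cells, was higher in the sheath L1 with a log2 ratio of -1.35 (SE 0.27, adjusted p = 0.00918), at 82.5, 86.2 and 131 CPM against 45.3, 41.6 and 31.1 CPM in the blade L1. The 5 tested LOB domain genes had a median ratio of 0.14 in the L1 and -1.09 in all layers, and the call in each was ial1. The 7 HD-ZIP IV, 4 KNOX, 2 HD-ZIP III and 9 NAC genes had 0 calls in either tissue and 0 by the interaction at these depths.

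**Figure D5:**
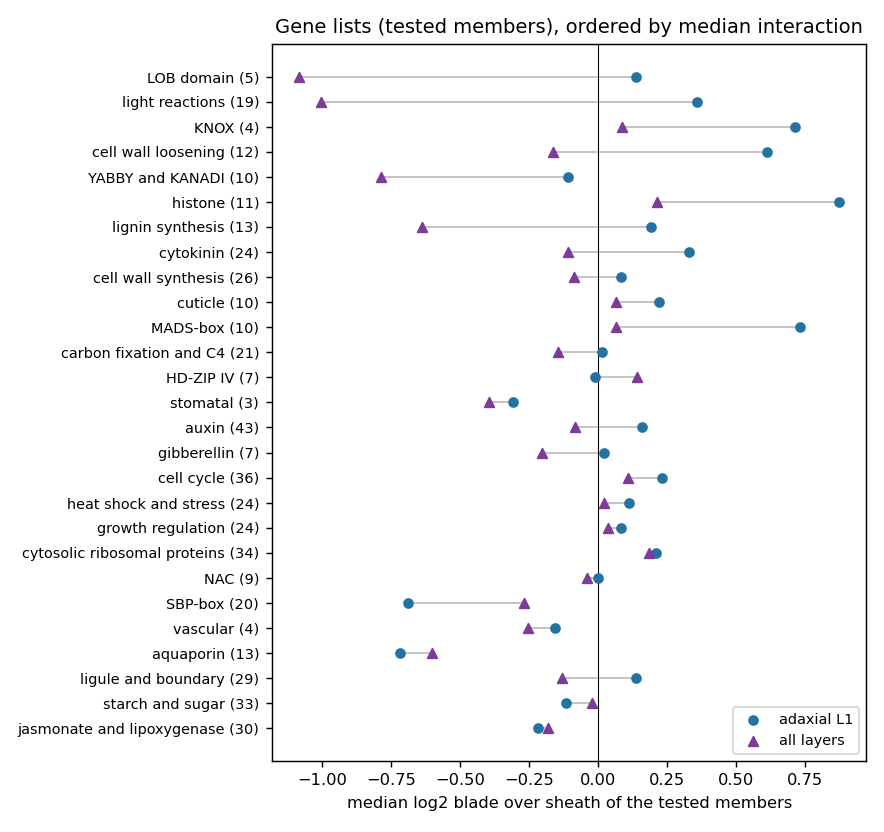
Median log2 ratio of blade over sheath of the tested members of 27 gene lists with at least 3 of them, in the adaxial L1 (circles) and in all layers (triangles), with the number tested in brackets. The medians of the light reactions and LOB domain lists lie farthest apart between the tissues, each with at most 1 member called by the interaction.

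Lists of metabolism and stress were as sparse. Of 19 genes of the light reactions 1 was called by the interaction (psah1), and the median ratio was 0.36 in the L1 and -1.0 in all layers. Averaged over the regions 12 of the 19 were lower in the L1 than in all layers, against 13.2% of all genes tested. Of 30 jasmonate and lipoxygenase genes 0 were higher in the blade L1 and 2 in the sheath L1 (aos1 and opr6), and of 13 aquaporin genes 0 and 2 (Lsi6 and PIP1-1). Of 33 starch and sugar genes 1 was higher in the blade L1, the granule-bound starch synthase gene waxy1 (GRMZM2G024993), with 194 counts there and 0 in the sheath L1 (at least 44.3-fold higher). Of 13 lignin synthesis genes 1 was higher in the blade L1 (BM1) and 1 in the sheath L1 (cad1, -4.03, SE 0.97, adjusted p = 0.0259, lost in 2 leave-one-out fits). BM1 (GRMZM5G844562), the gene for the cinnamyl alcohol dehydrogenase behind the brown midrib mutant, stood at 24.2 to 156 CPM in all layers. In the L1 it had 2.52, 0.131 and 2 CPM in the blade and no count in the sheath (at least 23.1-fold higher in the blade), a call lost in 4 leave-one-out fits.

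Of 24 heat shock and stress genes 2 were higher in the blade L1 and 3 in the sheath L1, with a median ratio of 0.11 there and 0.02 in all layers. The blade side held dehydrin3 (GRMZM2G373522), a gene of the water deficit response, at 1181, 1286 and 998 CPM in the blade L1 and 379, 325 and 357 CPM in the sheath L1 (1.71, SE 0.29, adjusted p = 0.00301). In all layers blade (930 to 1313 CPM) and sheath (574 to 1463 CPM) overlapped, and the interaction was 1.48 (SE 0.40, adjusted p = 0.249). The ligule L1 held 5.10 to 8.39 CPM of dehydrin3, below both neighbours. The 34 cytosolic ribosomal protein genes had a median interaction of 0.00 with 0 calls in either tissue.

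Genes known for the ligule and for blade-sheath identity were not called by the interaction. The liguleless gene lg2 (GRMZM2G060216), a bZIP factor, had an interaction of 0.36 (95% interval -0.74 to 1.46), and rs2 (GRMZM2G403620), a MYB factor that keeps KNOX genes off in leaves, of 0.35 (-0.42 to 1.12). The epidermis marker ocl1 had -0.17 (-0.76 to 0.43). The YABBY gene yab14 (GRMZM2G005353) was nearly confined to all layers, with 9.29 to 66.2 CPM there and 0 to 1.46 CPM in the L1, and its interaction of 0.71 had an interval of -2.46 to 3.88. The SBP-box gene lg1 (GRMZM2G036297) was at 0 to 0.624 CPM in all 12 libraries and too low to be tested, while the ligule L1 held 10.2 to 19.2 CPM. The KNOX gene kn1 (GRMZM2G017087) was also not tested. Its counts came mostly from blade L1 replicates 1 and 2, at 16 and 3.15 CPM, with 0 to 0.529 CPM in the other 10 libraries.

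The ligule L1 was then set beside the 2 regions that flank it. Of the 492 genes higher in the blade L1, 166 had a ligule L1 level nearer to the blade than to the sheath, and of the 442 higher in the sheath L1, 185 were nearer to the sheath. Of the 18 positive interaction genes the ligule L1 was nearer to the sheath L1 in 14, ARF4, mips2 and psah1 among them, and of the 14 negative genes it was nearer to the blade L1 in 7 and to the sheath L1 in 7. These placements use the mean of log2(CPM + 0.5) and carry no test.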

How the data were processed

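Expected counts and FPKM per gene and library were deposited by the authors. TopHat2 2.0.10 and Cuffdiff 2.1.1 are named, per the submitters' processing notes. The genome build, annotation and strand setting were not given in the available sources, so overlapping and antisense genes cannot be told apart. Per the labels' protocols, RNA went through linear amplification before sequencing.

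The deposited counts held 0.36 to 0.557 percent values that were not whole and were rounded. Genes were kept with filterByExpr (smallest count 10, smallest total 15), normalised by TMM and tested with edgeR 4.0.16 (quasi-likelihood, robust) in R 4.3.3 over the 12 libraries, with Benjamini-Hochberg adjustment over all 21424 genes and a threshold of 0.05. SE is the absolute log2 value over the square root of F. CPM values of ligule and P6 libraries were scaled over all 24 libraries. Alternatives used limma 3.58.1 on the authors' FPKM values (log2 with a pseudocount of 1 or 0.1) and DESeq2 1.42.0. Of these steps only the edgeR interaction test was run on simulated counts with a known interaction. Figures were drawn with matplotlib 3.10.9.

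Names came from RefSeq (assembly Zm-B73-REFERENCE-NAM-5.0, names only). Of 109715 identifiers 18259 matched 1 locus, and 2473 had a name. The members and gene lists were chosen with earlier results of these data known. The rule for naming genes asked for an interaction call kept with each library left out. It gave ARF4, GRMZM2G173534 and GRMZM2G499390, plus 6 fixed markers (ocl1, rs2, yab14, lg1, lg2 and kn1). All other genes named were chosen after their values were seen, outside that rule. One result is not reported here. A planned count of a promoter motif was not run, and no sequence is shown. Counting intervals and floors of 3 counts cover counting error only. The floor was 0.0569 to 0.481 CPM per library.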

Additional observations from a re-analysis of the deposited data

Results flagged for a closer look

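In 4 of the genes called by the interaction, blade exceeded sheath in every L1 library and sheath exceeded blade in every library of all layers. The interaction tests the difference of the 2 ratios and not a change of direction. The share of all genes with this pattern was not counted. Blade and sheath did not overlap, in either direction, for 18.4% of all genes tested in the L1 and 14.6% in all layers. The values of INO1 (3.83) and psah1 (5.65) are described above. GRMZM5G822449 stood at 15.1, 12.9 and 19.6 CPM in the blade L1 and 3.72, 5.62 and 5.63 CPM in the sheath L1, and at 43.2, 45.6 and 41.7 CPM in the blade and 55.6, 68.4 and 52.5 CPM in the sheath of all layers, with an interaction of 2.09 (SE 0.38, adjusted p = 0.0432). GRMZM2G164440 stood at 87.8, 84.3 and 43.3 CPM in the blade L1 and 15.7, 16.6 and 26.4 CPM in the sheath L1, and at 241, 266 and 263 CPM in the blade and 470, 272 and 328 CPM in the sheath of all layers, with an interaction of 2.35 (SE 0.42, adjusted p = 0.0432). The calls of GRMZM5G822449 and GRMZM2G164440 were lost in 11 and 10 leave-one-out fits. In none of the 4 genes was the all-layers ratio called by itself in the joint fit. With all layers fitted alone in edgeR, the adjusted p was 0.602 for GRMZM5G822449 and 0.664 for GRMZM2G164440. The L1 fitted alone gave GRMZM5G822449 an adjusted p of 0.133. A change of direction is thus not shown for GRMZM5G822449 and GRMZM2G164440. For psah1 the all-layers ratio had an adjusted p of 0.612 in the joint fit. For INO1 neither the joint fit nor the fits of each tissue alone called both sides. These fits thus do not settle a change of direction for INO1, nor does the joint fit for psah1.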

How the results depend on the processing

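The number of genes called by the interaction depended strongly on the processing, and the cause was not tested. Against 32, it was 412 without a filter on counts, 210 with DESeq2, 15 and 8 with limma on log2(FPKM + 1) and log2(FPKM + 0.1), 0 with limma and no filter (1686 genes at an unadjusted p below 0.05), and 20 without both libraries that stood apart. DESeq2 and the unfiltered table each called 32 of the 32 again, and limma on log2(FPKM + 1) called 11 of them. Leaving out each library gave 3 to 45 calls. In the L1, against 934, there were 268 fitted alone (110 higher in the blade, 158 in the sheath), 1892 with DESeq2, 2007 with no filter and 620 (without blade L1 replicate 1) to 950 with a library left out. With limma the split in the L1 turned toward the sheath (353 and 537 on log2(FPKM + 1), 396 and 532 on log2(FPKM + 0.1), 244 and 388 with no filter). In all layers, against 88, there were 259 fitted alone, 236 with DESeq2, 276 with no filter, 135 with limma on log2(FPKM + 1), 167 with limma and no filter, and 37 (without sheath replicate 5) to 116 (without blade L1 replicate 2) with a library left out. With the replicate number as a block, 8, 516 and 47 genes were called by the interaction, in the L1 and in all layers. The numbers did not pair the libraries. Correlations of same-numbered libraries were 0.03, -0.08 and -0.12 in the L1 and -0.57, -0.43 and 0.26 in all layers. Of the 6 numbers 1 (replicate 5) correlated best with itself. In all layers replicate 3 correlated best with number 4 (0.59) and replicate 4 with number 3 (0.53). A pairing across numbers was not tested. The 2 fits with each tissue alone, and those without both libraries that stood apart, were chosen after seeing the data. The other settings left each count within 1.5 times. Of the 63 genes followed singly, 14 changed sign in some setting, and 0 of the 14 were called by the interaction in the joint edgeR fit, with bHLH165 running from -0.16 to 3.55. At this depth 9 of the 32 calls had a group with 3 or fewer counts.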
